A study of Homo sapiens with 9 samples.

Results

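A set of 9 genes that the transcription factor p53 is known to activate, CDKN1A, MDM2, GADD45A, GADD45B, RRM2B, ZMAT3, TP53I3, SESN1 and BTG2, was followed through oxygen and glucose deprivation and reoxygenation of human brain endothelial cells. The 9 targets were taken by name from a list of p53 target genes, chosen with earlier results of these data known. All 9 had an entry among the 15570 genes of the deposited expression table, and all 9 were among the 10818 genes tested. Expression was measured by RNA sequencing in hCMEC/D3, an immortalised line of human cerebral microvascular endothelial cells used as a model of the blood-brain barrier. Control cells received neither treatment. Cells of the OGD group, for oxygen-glucose deprivation, were grown to 80% confluence, given medium without glucose and kept for 4 h in an anaerobic chamber with 95% N2 and 5% CO2. Cells of the OGD/R group had the same 4 h of deprivation and then 16 h of reoxygenation in normal medium at 21% O2 and 5% CO2. Each group had 3 libraries. No group without deprivation was matched to the 16 h of reoxygenation, so the effects of time and of reoxygenation cannot be told apart. The labels do not say whether the 3 libraries of a group came from separate cultures, so p-values measure the spread between these libraries, which may be technical.

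p53 is held at a low level in unstressed cells because MDM2, itself a p53 target, binds it and marks it for degradation. Stress that blocks this step lets p53 accumulate and bind DNA at paired ten-base half-sites, from which it activates genes for cell-cycle arrest, DNA repair, redox defence, metabolism and cell death. The control lies mostly on the protein, which these data do not measure. Several of its targets, among them GADD45A, GADD45B, BTG2 and SESN1, are also known to be induced by other stress-activated factors. hCMEC/D3 carries SV40 large T antigen, a viral protein that binds p53, so the line is limited as a model of the p53 response.

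A p53 site was found in the RefSeq promoter windows of MDM2 and SESN1, and both are printed because paired half-sites are the sequence through which p53 acts on its targets. The table of windows, each reaching from 250 bases before to 50 bases after a transcript start on GRCh38.p14, held 13 windows for 7 of the 9 genes. GADD45A and RRM2B had no entry. A site was called where 2 decamers of the p53 half-site consensus stood side by side on either strand, each with its core C and G, with at most 3 mismatches in all. Such a site was found in 392 of 35116 windows of all genes, or 1.12%. In MDM2 it lay at -94 to -75 from the transcript start at 68809017 with 2 mismatches, and in SESN1 at -49 to -30 from the start at 109008988 with 3 mismatches. The MDM2 start is one of the downstream starts of the gene, and the SESN1 start is one of 3 in the table. The same MDM2 site also lies in the window of the start at 68809024. Each sequence below runs 5′ to 3′ on the strand of the gene, and capitals mark the 20 bases of the paired half-sites. Neither stretch overlaps an annotated exon of its gene.
MDM2, chr12:68808903-68808962, plus strand: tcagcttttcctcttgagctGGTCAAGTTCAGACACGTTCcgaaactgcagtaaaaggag
SESN1, chr6:109008998-109009057, minus strand: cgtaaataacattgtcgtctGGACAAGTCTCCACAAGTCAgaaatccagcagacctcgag
The deposited values are per gene, so they do not separate transcripts that begin at these starts from those that begin elsewhere. A further 2 motifs were searched on both strands of the same windows. TGATGNAA, a motif bound by ATF4, was in none of the 13 windows and in 3.62% of all windows. CACGTG, the E-box, was in 1 of the 13, that of GADD45B, and in 7.26% of all windows. These matches describe the letters of the windows and say nothing about binding in these cells. Sequence farther upstream or deeper within the genes was not searched, so a window without a site does not show that the gene lacks one.

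Values are FPKM (fragments mapped to a gene, scaled by transcript length and by the mapped total) as the authors deposited them. Summed over genes, FPKM came to 454237 to 537878 in the control libraries, 585947 to 605818 in the OGD libraries and 442696 to 449248 in the OGD/R libraries. Read numbers are unknown, so values carry no counting interval. Genes for ribosomal proteins took 17.5% to 22.6% of that sum in control libraries, 28.9% to 30.4% under OGD and 13.1% to 16.9% after reoxygenation, and control replicate 3 had the highest share of its group. When a few abundant genes take a larger share, the FPKM of all others falls. On the deposited scale the median gene had a log2 fold change of -0.31 in OGD against control, 0.39 in OGD/R against OGD and 0.07 in OGD/R against control. Results for the 9 targets and counts for gene lists are therefore also given after median-of-ratios scaling, which sets the typical gene equal between libraries. For other genes the scaled value is given where that scaling ended a call or turned a direction of a difference printed here. Of 12 endothelial markers, 4 were tested (PECAM1, CDH5, ENG and MCAM), while VWF, CLDN5, KDR, TEK, TIE1 and ERG stayed below 1 FPKM in all libraries. The summed level of the endothelial markers was 37.3 to 48.9 FPKM in control libraries, 28.2 to 31.1 under OGD and 91.3 to 109 after reoxygenation. ENG and MCAM made most of it, while PECAM1 and CDH5 averaged 1.113 and 1.255 FPKM in control. Markers of fibroblasts (3 of 6 tested) summed to 13.9 to 18.8, 7.98 to 9 and 36.1 to 49.6 FPKM in the same order, with DCN and PDGFRA at no more than 0.186. COL1A1, at a mean of 29.34 FPKM, made most of the OGD/R sum. Markers of pericytes and smooth muscle (3 of 7 tested) summed to 6 to 10.7, 3.91 to 5.14 and 12.8 to 14.2 FPKM. Those of astrocytes, neurons, microglia and leukocytes (1 of 10 tested) summed to 18 to 22.1, 21.3 to 22.5 and 26.3 to 28.1 FPKM. Nearly all of that sum was CD68, at means of 18.33, 21.07 and 26.62 FPKM. The others of that list with an entry stayed below 1 FPKM in all libraries. Epithelial markers summed to at most 0.344 FPKM. The part of these shifts in the results below was not tested. In bulk RNA, fewer cells of a type and less RNA per cell cannot be told apart.

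The 9 targets did not move as a block. In OGD against control, GADD45A and TP53I3 rose and CDKN1A, MDM2, GADD45B, RRM2B and BTG2 fell on the deposited scale. Those 5 then rose from OGD to OGD/R on that scale, as did 53.3% of all tested genes, while TP53I3 fell. Compared with control, GADD45A was higher in OGD/R, while RRM2B and TP53I3 were lower. The rise of GADD45A and TP53I3 and the fall of RRM2B in OGD passed the test after median-of-ratios scaling too. The falls of CDKN1A, MDM2, GADD45B and BTG2 did not. None of the 5 rises from OGD to OGD/R passed after that scaling, while the fall of TP53I3 did. The comparisons share libraries, since OGD enters the first and the second and control enters the first and the third. All adjusted p-values for genes come from limma on log2(FPKM + 1), with Benjamini-Hochberg adjustment over the 10818 genes tested in a comparison. All fold changes are on that log2 scale, which understates the change of low genes.

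**Figure D1:**
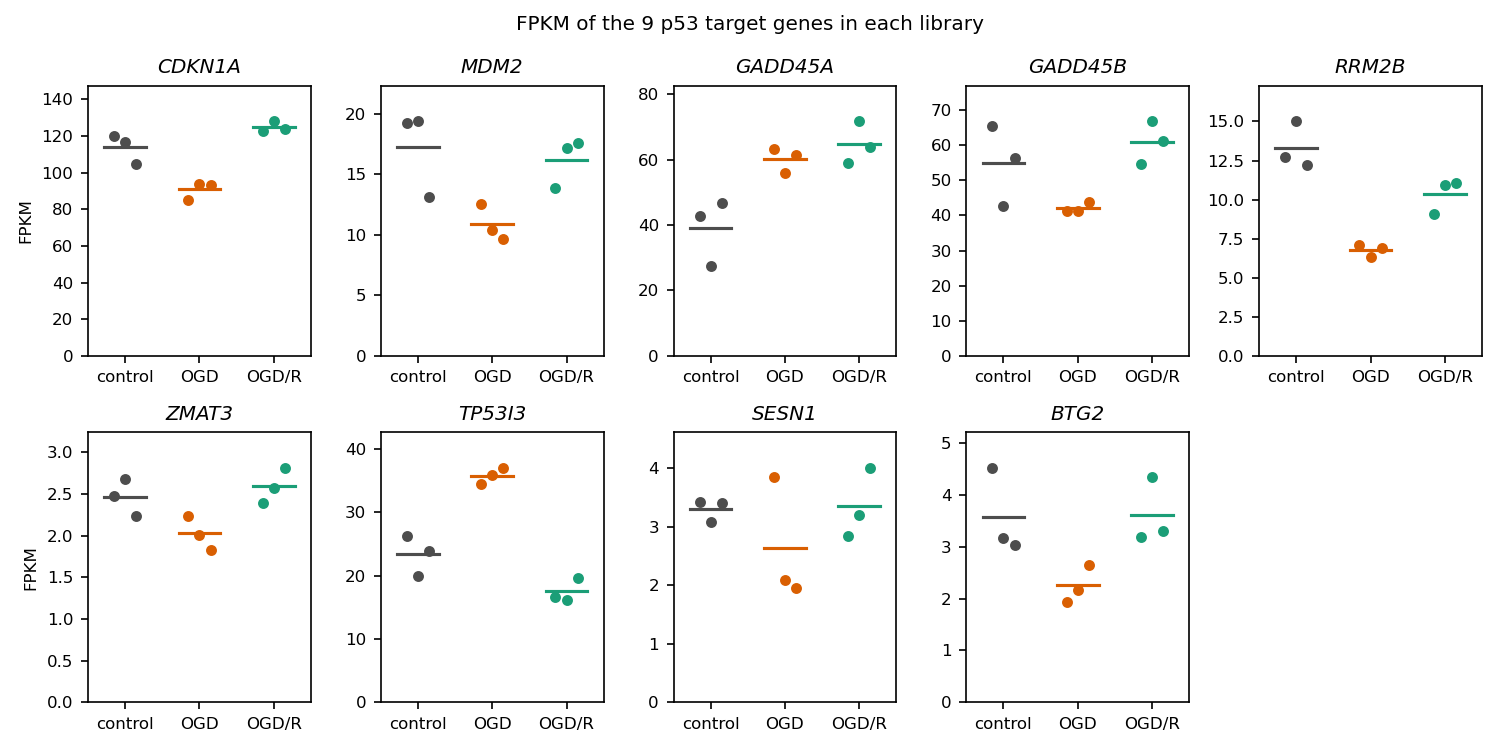
FPKM (vertical axes, each from 0) of the 9 p53 targets in each of 3 control (grey), 3 OGD (orange) and 3 OGD/R (green) libraries, with a bar at the group mean. TP53I3 is at 34.4 to 37.0 FPKM in OGD and 16.2 to 19.7 in OGD/R, and GADD45A lies above all control libraries in both treated groups.

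In control cells the targets spanned a wide range of levels. CDKN1A averaged 113.8 ± 8.11 FPKM (SD, n = 3) and stood at the percentile 93.6 among tested genes by its control mean. ZMAT3, at 2.46 ± 0.218 FPKM, stood at the percentile 16.5. FPKM is per transcript length, but the slope of the values on transcript length differed between groups. OGD/R libraries had slopes of 0.0853, 0.146 and 0.122, all above those of control libraries (0.0168, 0.0348 and -0.0444). Slopes of OGD libraries were all below control, at -0.0975, -0.131 and -0.132. Orders of genes of different length are therefore given as a description, and the part of this trend in them was not tested. The order in control was CDKN1A, GADD45B, GADD45A, TP53I3, MDM2, RRM2B, BTG2, SESN1 and ZMAT3. Replicates overlapped between GADD45B and GADD45A, between MDM2 and RRM2B, and between BTG2 and SESN1. In OGD the order was CDKN1A, GADD45A, GADD45B, TP53I3, MDM2, RRM2B, SESN1, BTG2 and ZMAT3, and overlaps between neighbours were limited to the last 3. The order in OGD/R was CDKN1A, GADD45A, GADD45B, TP53I3, MDM2, RRM2B, BTG2, SESN1 and ZMAT3, with overlaps between the GADD45 genes, between TP53I3 and MDM2, and between BTG2 and SESN1. CDKN1A was the most abundant of the 9 in every group, and SESN1, BTG2 and ZMAT3 were the lowest 3.

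Among the genes for cell-cycle arrest, CDKN1A encodes p21, an inhibitor of cyclin-dependent kinases and the best known p53 target. The gene (NCBI Gene 1026) lies on chromosome 6 at 36676463 to 36687332 of GRCh38.p14. CDKN1A was at 120.1, 117 and 105 FPKM in control, at 85.2, 94.0 and 93.4 in OGD and at 123, 128.0 and 124 in OGD/R. The OGD libraries lay below all others, and the OGD/R libraries lay above all others. The fall in OGD was 0.32 log2 units (log2 fold change -0.32, SE 0.08, limma adjusted p = 0.00629), and OGD/R was higher than OGD by 0.46 (SE 0.08, adjusted p = 0.000364). Against control, OGD/R differed by 0.14 (adjusted p = 0.209). After median-of-ratios scaling the same 3 differences were 0.05 (adjusted p = 0.654), -0.01 (adjusted p = 0.916) and 0.04 (adjusted p = 0.734). None of the 3 differences then exceeded the spread between replicates. With quantile normalization CDKN1A passed as higher in OGD/R than in control (0.25, adjusted p = 0.0393). The long noncoding RNA DINOL overlaps an exon of CDKN1A on the opposite strand, and whether the counting used strand is not given in the sources used here.

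BTG2 encodes an antiproliferative protein that recruits the deadenylase complex to mRNAs. The gene (NCBI Gene 7832) lies on chromosome 1 at 203305519 to 203309602 of GRCh38.p14. BTG2 was at 4.52, 3.18 and 3.04 FPKM in control, at 1.93, 2.17 and 2.65 in OGD and at 3.18, 4.33 and 3.30 in OGD/R. All OGD libraries lay below all others, while control and OGD/R overlapped. BTG2 fell in OGD (log2 fold change -0.48, SE 0.16, adjusted p = 0.0215) and rose from OGD to OGD/R (0.50, SE 0.16, adjusted p = 0.0146). Neither call was kept after median-of-ratios scaling, with -0.21 (adjusted p = 0.206) and 0.15 (adjusted p = 0.336). The fall in OGD was also lost without control replicate 1 (adjusted p = 0.0819), OGD replicate 1 (0.0822) or OGD replicate 2 (0.0626), and the rise without OGD replicate 1 (0.0606) or OGD/R replicate 2 (0.0686).

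GADD45A and GADD45B encode small acidic proteins that bind p21, PCNA and the kinase MEKK4, and both are induced by DNA damage and other stress. GADD45A (NCBI Gene 1647) lies on chromosome 1 at 67685201 to 67688334 of GRCh38.p14, and GADD45B (NCBI Gene 4616) on chromosome 19 at 2476127 to 2478257. GADD45A was at 42.8, 27.6 and 46.8 FPKM in control, at 63.2, 56.0 and 61.4 in OGD and at 58.8, 71.7 and 63.8 in OGD/R. Each OGD and OGD/R library exceeded each control library, and OGD and OGD/R overlapped. GADD45A rose in OGD by 0.64 (SE 0.16, adjusted p = 0.00467) and was 0.74 higher in OGD/R than in control (SE 0.16, adjusted p = 0.00298). Both calls held in all 19 alternative analyses, and after median-of-ratios scaling the rises were 1.01 (adjusted p = 0.000658) and 0.65 (adjusted p = 0.00804). From OGD to OGD/R the difference was 0.10 (adjusted p = 0.585), and after scaling it was -0.36 (adjusted p = 0.0638).

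GADD45B was at 65.4, 42.8 and 56.4 FPKM in control, at 41.1, 41.2 and 43.7 in OGD and at 54.6, 66.8 and 61.2 in OGD/R. Control replicate 2 lay within the OGD range, and all OGD/R libraries lay above all OGD libraries. GADD45B was lower in OGD (log2 fold change -0.36, SE 0.13, adjusted p = 0.0371), a call that held in 9 of 19 alternatives. It was lost without control replicate 1 (-0.22, adjusted p = 0.16), control replicate 3 (0.0782) or any one of the OGD libraries (0.0886, 0.092 and 0.0618). The rise from OGD to OGD/R was 0.52 (SE 0.13, adjusted p = 0.0039). After median-of-ratios scaling GADD45B differed by 0.01 in OGD against control (adjusted p = 0.95) and by 0.06 in OGD/R against OGD (adjusted p = 0.683).

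MDM2 encodes the ubiquitin ligase that closes the feedback loop on p53. The gene (NCBI Gene 4193) lies on chromosome 12 at 68808172 to 68850686 of GRCh38.p14. MDM2 was at 19.3, 19.4 and 13.1 FPKM in control, at 12.6, 10.4 and 9.70 in OGD and at 13.9, 17.2 and 17.6 in OGD/R. The OGD libraries were below all others, with control replicate 3 the nearest to them, and control and OGD/R overlapped. MDM2 fell in OGD (log2 fold change -0.61, SE 0.16, adjusted p = 0.00608) and rose from OGD to OGD/R (0.54, SE 0.16, adjusted p = 0.00863). After median-of-ratios scaling the values were -0.26 (adjusted p = 0.123) and 0.10 (adjusted p = 0.528), and quantile normalization ended both calls as well. OGD/R and control differed by -0.07 (adjusted p = 0.746). CPM, a gene whose exons overlap those of MDM2, was at no more than 0.0552 FPKM.

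RRM2B encodes p53R2, the small ribonucleotide reductase subunit that supplies deoxynucleotides for DNA repair and for mitochondrial DNA outside S phase. Its NCBI Gene number is 50484, and it lies on chromosome 8. RRM2B was at 12.7, 15.02 and 12.2 FPKM in control, at 7.11, 6.32 and 6.88 in OGD and at 9.06, 10.96 and 11.05 in OGD/R. The 3 groups did not overlap, with OGD lowest and OGD/R in between. The fall in OGD was the largest among the 9 genes on either scale, at -0.88 as deposited (SE 0.12, adjusted p = 0.000127) and -0.55 after median-of-ratios scaling (adjusted p = 0.00156), and it passed in all 19 alternatives. The rise from OGD to OGD/R, 0.54 (SE 0.12, adjusted p = 0.00149), was 0.12 after that scaling (adjusted p = 0.299). RRM2B was 0.33 lower in OGD/R than in control (log2 fold change -0.33, SE 0.12, adjusted p = 0.0426), a call kept in 8 of 19 alternatives. It was kept after median-of-ratios scaling (-0.42, adjusted p = 0.00678). It was lost without control replicate 2 (adjusted p = 0.129) and without each single OGD or OGD/R library (0.0558 to 0.144).

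TP53I3, also called PIG3, encodes a quinone oxidoreductase linked to p53-dependent oxidative stress. The gene (NCBI Gene 9540) lies on chromosome 2 at 24077433 to 24084834 of GRCh38.p14. TP53I3 was at 26.2, 19.9 and 23.9 FPKM in control, at 34.4, 35.8 and 37.0 in OGD and at 16.6, 16.2 and 19.7 in OGD/R. The 3 groups did not overlap, with OGD highest and OGD/R lowest, although control replicate 2 at 19.9 was close to OGD/R replicate 3 at 19.7. TP53I3 rose in OGD by 0.60 (SE 0.11, adjusted p = 0.000954) and fell by 1.0 from OGD to OGD/R (log2 fold change -1.0, SE 0.11, adjusted p = 9.88e-06). Both held in all 19 alternatives, and median-of-ratios scaling gave 0.97 (adjusted p = 0.000128) and -1.45 (adjusted p = 3.12e-06). It was the only one of the 9 genes that fell from OGD to OGD/R on the deposited scale. Against control, OGD/R was lower (-0.39, SE 0.11, adjusted p = 0.0161), also after scaling (-0.48, adjusted p = 0.00682), and that call was lost without control replicate 1 (0.0529), OGD/R replicate 1 (0.0515) or OGD/R replicate 2 (0.0602). Exons of TP53I3 overlap those of FAM228B on the opposite strand. FAM228B was at 2.17 to 5.88 FPKM over the 9 libraries and did not rise in OGD (log2 fold change -0.44, adjusted p = 0.0253, and -0.14, adjusted p = 0.33, after scaling).

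SESN1 encodes sestrin 1, which restrains mTORC1 and takes part in redox defence. It lies on chromosome 6 at 108984309 to 109094846 of GRCh38.p14 (NCBI Gene 27244). SESN1 was at 3.42, 3.07 and 3.41 FPKM in control, at 3.85, 2.10 and 1.95 in OGD and at 2.84, 3.204 and 4.01 in OGD/R. OGD replicate 1 was the highest of the control and OGD libraries, while OGD replicates 2 and 3 were the lowest of all 9. The log2 fold change in OGD was -0.28 (SE 0.18, adjusted p = 0.206), and without OGD replicate 1 it was -0.51 (adjusted p = 0.0205). From OGD to OGD/R it was 0.29 (adjusted p = 0.176), and without that library 0.52 (adjusted p = 0.0133). After median-of-ratios scaling of all 9 libraries the same differences were -0.01 (adjusted p = 0.977) and -0.06 (adjusted p = 0.787). SESN1 is a gene on which 1 library decides the call, and exons of an antisense RNA overlap it. ZMAT3 encodes a zinc finger protein that binds RNA and regulates splicing and mRNA stability. It lies on chromosome 3 at 179017223 to 179072513 (NCBI Gene 64393). ZMAT3 was at 2.48, 2.68 and 2.24 FPKM in control, at 2.24, 2.01 and 1.83 in OGD and at 2.40, 2.57 and 2.81 in OGD/R. The OGD libraries lay below all OGD/R libraries and reached up to the lowest control library. Its differences were -0.20 (adjusted p = 0.191), 0.25 (adjusted p = 0.0906) and 0.05 (adjusted p = 0.756) in the 3 comparisons taken in the order used above. After median-of-ratios scaling they were 0.06 (adjusted p = 0.632), -0.08 (adjusted p = 0.51) and -0.02 (adjusted p = 0.904). In OGD/R against OGD the call depended on the setting: ZMAT3 passed as higher with no intensity trend (0.25, adjusted p = 0.0482) and as lower with quantile normalization (-0.30, adjusted p = 0.0189).

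**Figure D2:**
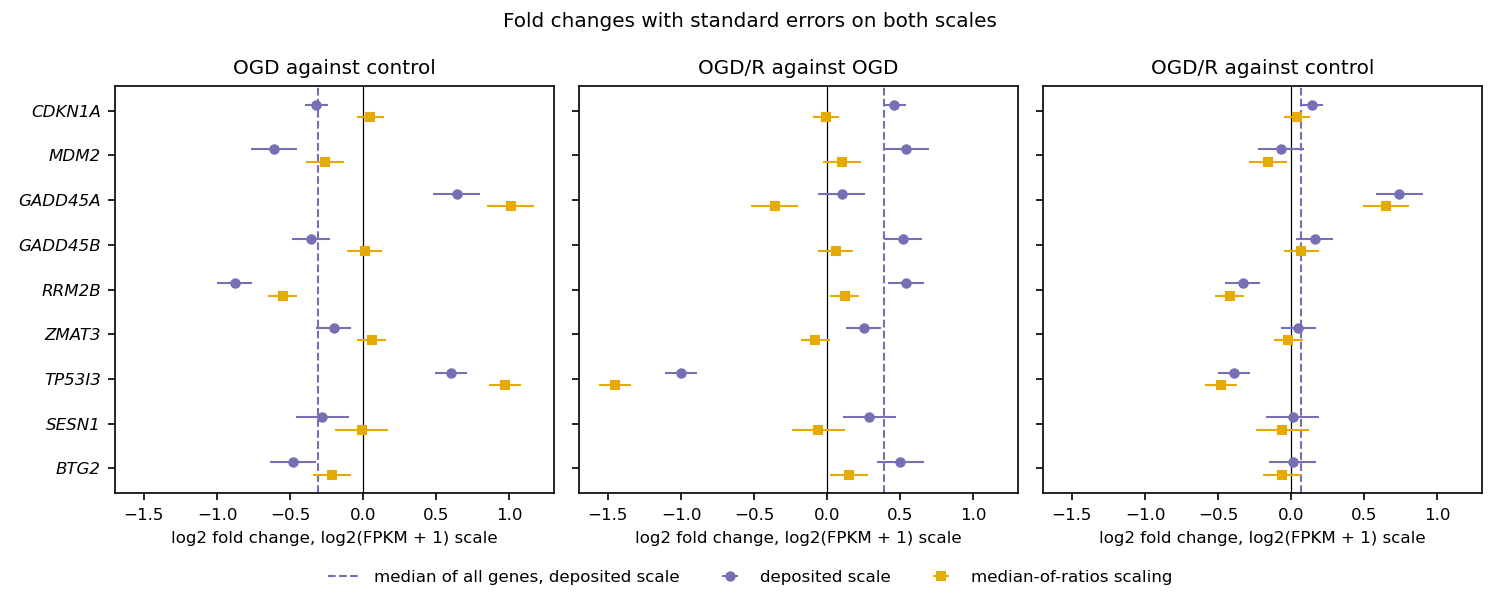
Log2 fold change (horizontal axis, log2(FPKM + 1) scale) of the 9 targets in the 3 comparisons, on the deposited scale (circles) and after median-of-ratios scaling (squares), with bars of 1 standard error and a dashed line at the median of all genes on the deposited scale. GADD45A (0.64 and 1.01) and TP53I3 (0.60 and 0.97) are above 0 in OGD on both scales, RRM2B (-0.88 and -0.55) is below 0 on both, and CDKN1A sits on the dashed line at -0.32.

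Counted over the 9 genes, 2 rose in OGD against control, where 11.3% of all tested genes rose, and 5 fell, where 46.7% of all tested genes fell. The share of the 9 that fell was thus near that of all genes. After median-of-ratios scaling, 2 rose (26.5% of all genes) and 1 fell (23.1%). From OGD to OGD/R, 5 of the 9 rose beside 53.3% of all genes and 1 fell beside 17.4%. After scaling none of the 9 rose (32.6% of all genes), with 0 of the 9 past an unadjusted limma p of 0.05 in that direction, and 1 fell (34.2%). Between control and OGD/R, 1 rose beside 24.7% of all genes and 2 fell beside 16.5%, and the same counts of 1 and 2 were found after scaling (22.1% and 23.0% of all genes). The median log2 fold change of the 9 was -0.32, 0.46 and 0.01 in the 3 comparisons, against -0.31, 0.39 and 0.07 for all tested genes. Replicates of the groups did not overlap for 6 of the 9 in OGD against control (65.1% of all genes), 7 of the 9 in OGD/R against OGD (78.2%) and 4 of the 9 in OGD/R against control (47.8%).

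Of 19 listed regulators of p53, 18 were tested, and HIPK2, at 0.29 to 1.07 FPKM, was below the filter. In OGD against control 2 rose and 11 fell, with a median of -0.40 against -0.31 for all genes, where 11.3% of all genes rose and 46.7% fell. After median-of-ratios scaling 3 rose and 5 fell (26.5% and 23.1% of all genes). The 2 that rose were RPL5 (0.60, adjusted p = 0.000663) and RPL11 (1.03, adjusted p = 0.000694), ribosomal proteins that can bind and inhibit MDM2. RPL5 passed in 18 of 19 alternatives in this comparison (highest adjusted p = 0.437) and in 18 of 19 from OGD to OGD/R (highest adjusted p = 0.27). RPL11 was at 1114, 1019 and 1761 FPKM in control, at 2513, 2729 and 2480 in OGD and at 997, 729.8 and 829 in OGD/R. Both genes belong to the ribosomal protein genes whose share rose in OGD, and reads of such genes are shared with pseudogene copies. From OGD to OGD/R 10 of the 18 regulators rose and 2, RPL5 and RPL11, fell (53.3% and 17.4% of all genes), with a median of 0.46 against 0.39 for all genes. After scaling 6 rose and 6 fell (32.6% and 34.2% of all genes). Against control, 7 rose and 3 fell in OGD/R (24.7% and 16.5% of all genes), and 6 and 4 after scaling (22.1% and 23.0%). RPL11 was among those that fell (-0.58, adjusted p = 0.0257), a call lost without control replicate 3 (-0.33, adjusted p = 0.0542), OGD/R replicate 2 (0.111) or OGD/R replicate 3 (0.0691). MDM4, the partner of MDM2 that inhibits p53 without degrading it, was at 2.15, 2.16 and 1.33 FPKM in control, at 1.60, 1.57 and 1.37 in OGD and at 2.20, 2.79 and 3.64 in OGD/R. OGD/R libraries lay above all others. MDM4 rose from OGD to OGD/R by 0.61 (SE 0.17, adjusted p = 0.00586), but median-of-ratios scaling ended that call (0.29, adjusted p = 0.0986). So did quantile normalization (0.08, adjusted p = 0.632) and removal of the trend on transcript length (0.04, adjusted p = 0.812). Named after their values were seen, the acetyltransferase genes EP300 and CREBBP, whose products act as p53 coactivators, fell in OGD (-0.61, adjusted p = 0.00286, and -0.59, adjusted p = 0.00294). Both rose in OGD/R above control (1.06, adjusted p = 0.000143, and 0.85, adjusted p = 0.000471). Levels were low: EP300 averaged 1.19, 0.42 and 3.55 FPKM in control, OGD and OGD/R, and CREBBP averaged 1.59, 0.71 and 3.67.

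Genes related to the 9 targets by sequence, complex or symbol were also listed. RRM1 is among them as a partner subunit of RRM2B, not as a paralogue. Of the 12 listed, 9 were tested. In OGD against control 1 rose and 4 fell (11.3% and 46.7% of all genes), and 3 and 3 after median-of-ratios scaling (26.5% and 23.1%). Between OGD and OGD/R 5 of the 9 rose and 2 fell (53.3% and 17.4% of all genes), and 2 and 4 after scaling (32.6% and 34.2%). SESN3 and CDKN1C stayed below the filter, at no more than 0.00878 and 0.421 FPKM, and GADD45G was not analysed here. The lists share genes: MDM4 is also counted among the regulators of p53, and BTG1 and SESN2 among the other p53 targets below. SESN2, the sestrin paralogue, was at 3.94, 3.28 and 3.89 FPKM in control, at 4.81, 5.50 and 5.40 in OGD and at 4.98, 5.66 and 5.89 in OGD/R. Both treated groups lay above control. SESN2 rose in OGD (0.41, adjusted p = 0.0138), not passing when OGD replicate 2 (0.0582) or OGD replicate 3 (0.0526) was left out. It was higher in OGD/R than in control (0.47, adjusted p = 0.00986), a call that quantile normalization ended (0.27, adjusted p = 0.0706). CDKN1B, which encodes the related inhibitor p27, fell in OGD (-0.56, adjusted p = 0.000566) and rose from OGD to OGD/R (0.58, adjusted p = 0.000192). BTG1 fell (-0.62, adjusted p = 0.000472) and rose (0.80, adjusted p = 2.71e-05) in the same comparisons, while BTG3 differed by -0.16 (adjusted p = 0.153) and 0.02 (adjusted p = 0.86). RRM1 and RRM2, the large and the S-phase small subunit of ribonucleotide reductase, fell in OGD (-0.51, adjusted p = 0.000241, and -1.12, adjusted p = 2.79e-06). Both rose from OGD to OGD/R (0.37, adjusted p = 0.000889, and 0.97, adjusted p = 1.59e-06). ZMAT2 and ZMAT5, zinc finger genes that share the symbol of ZMAT3, fell from OGD to OGD/R (-0.58, adjusted p = 0.00208, and -0.55, adjusted p = 0.00014). After median-of-ratios scaling the direction of 3 of these related genes in OGD/R against OGD turned. BTG3 turned to -0.45 (adjusted p = 0.00123), SESN2 from 0.06 to -0.34 (adjusted p = 0.015) and RRM1 to -0.09 (adjusted p = 0.289). BTG3 also turned in OGD against control, to 0.20 (adjusted p = 0.0811). That scaling ended the fall of RRM1 in OGD (-0.14, adjusted p = 0.141) and the rise of CDKN1B from OGD to OGD/R (0.12, adjusted p = 0.148).

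Ratios of 2 genes within a library do not change when all its values are scaled by a common factor. Quantile normalization and removal of the length trend can change them. Chosen with the values known, 6 pairs of a target and a paralogue were compared in 18 exact two-sided permutation tests. With 3 libraries a group the smallest p such a test can give is 0.10, and the smallest after Benjamini-Hochberg adjustment over the 18 was 0.18, so no ratio could pass 0.05. The log2 ratio of GADD45A to GADD45B stood at -0.61, -0.63 and -0.27 in control, at 0.62, 0.44 and 0.49 in OGD and at 0.11, 0.10 and 0.06 in OGD/R. The 3 groups did not overlap (exact permutation p = 0.10 in each comparison), and the order of the paralogues turned, with GADD45B the higher in every control library and GADD45A the higher in every OGD and OGD/R library. The log2 ratio of MDM2 to MDM4 stood at 3.16, 3.17 and 3.31 in control, at 2.98, 2.72 and 2.82 in OGD and at 2.65, 2.62 and 2.28 in OGD/R. Again no groups overlapped (exact permutation p = 0.10 in each comparison), with control highest and OGD/R lowest. With the length trend removed, the rise of MDM4 from OGD to OGD/R was 0.04 rather than 0.61. The ratio was not recomputed on that scale. SESN1 over SESN2 averaged -0.16 ± 0.06 in control, -1.06 ± 0.64 under OGD and -0.73 ± 0.15 after reoxygenation (SD, n = 3 each), and both treated groups lay below control. CDKN1A over CDKN1B averaged 1.36 ± 0.08, 1.62 ± 0.11 and 1.48 ± 0.07 in the same order, and OGD lay above control without overlap. RRM2B over RRM2 averaged -3.73 ± 0.13, -3.57 ± 0.05 and -3.94 ± 0.15, and only OGD and OGD/R did not overlap. BTG2 over BTG1 averaged -2.67 ± 0.32, -2.67 ± 0.30 and -2.84 ± 0.15, with overlap in all 3 comparisons.

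**Figure D3:**
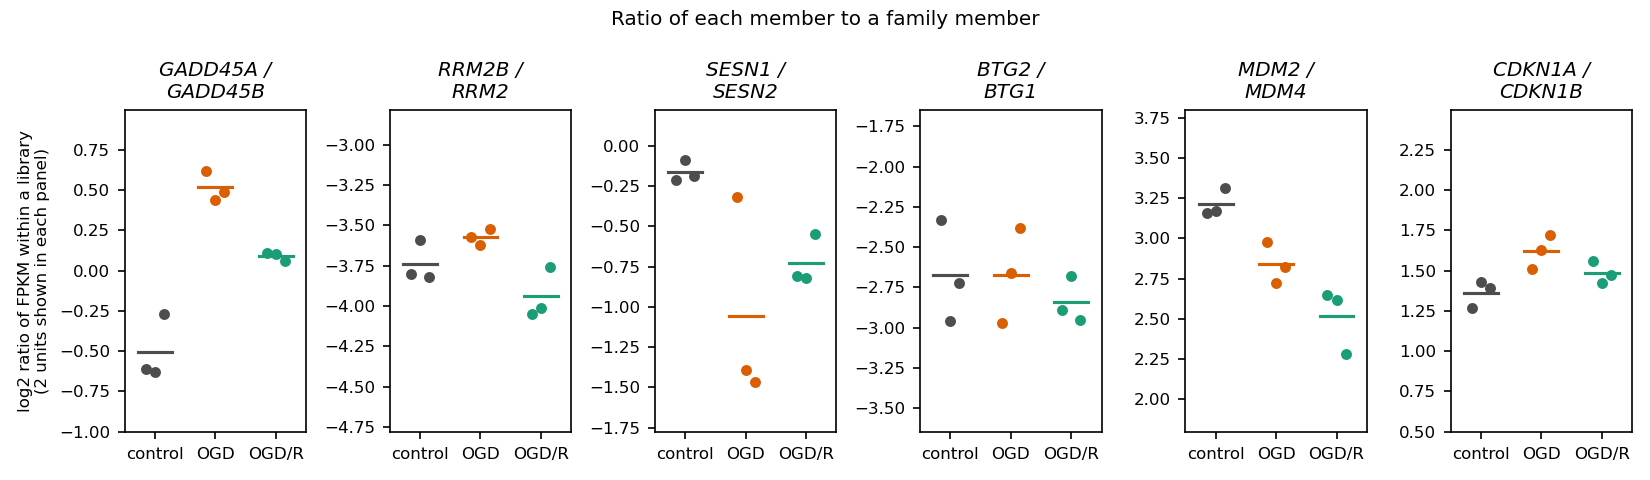
Log2 ratio of FPKM of a p53 target to a paralogue within each library (vertical axes, each spanning 2 units), with 3 control (grey), 3 OGD (orange) and 3 OGD/R (green) points and a bar at the group mean. GADD45A over GADD45B goes from a control mean of -0.50 to 0.52 under OGD and 0.09 after reoxygenation, and MDM2 over MDM4 goes from 3.21 to 2.84 and 2.52.

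Beyond the 9, 73 other p53 targets were listed in 5 functional groups, of which 71 had an entry and 64 were tested. RPRM and TP53AIP1 were not analysed here. In OGD against control 11 of the 64 rose and 30 fell, where 11.3% and 46.7% of all genes did, with a median of -0.32 beside -0.31 for all genes. Between OGD and OGD/R 34 rose and 7 fell (53.3% and 17.4% of all genes, and a median of 0.39 beside 0.39), and in OGD/R against control 21 rose and 10 fell (24.7% and 16.5% of all genes, and a median of 0.11 beside 0.07). Like the 9, the wider list thus had medians within 0.1 of those of all genes. After median-of-ratios scaling the counts were 21 and 15, 21 and 21, and 18 and 13. In the same order, all genes then rose and fell in 26.5% and 23.1%, in 32.6% and 34.2%, and in 22.1% and 23.0%.

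The group for metabolism and redox, to which TP53I3 and SESN1 are closest in function, stood at a median of 0.01 in OGD against control beside -0.31 for all genes, with 6 of 15 tested genes higher and 2 lower, and 8 and 1 after median-of-ratios scaling. In that comparison 11.3% of all genes rose and 46.7% fell, and 26.5% and 23.1% after scaling. Between OGD and OGD/R 4 of the 15 rose and 3 fell, beside 53.3% and 17.4% of all genes. After scaling 0 rose and 9 fell (32.6% and 34.2% of all genes), with 1 of the 15 higher at an unadjusted limma p under 0.05. SAT1, which encodes the enzyme that acetylates spermidine and spermine, was at 132, 129 and 135 FPKM in control, at 263, 262 and 265 in OGD and at 50.7, 59.0 and 62.8 in OGD/R. Its groups did not overlap, and like TP53I3 it was highest in OGD and lowest in OGD/R. SAT1 rose in OGD (0.99, adjusted p = 6.94e-06), fell from OGD to OGD/R by 2.18 (log2 fold change -2.18, adjusted p = 9.75e-09) and was lower in OGD/R than in control (-1.19, adjusted p = 4.95e-06). SCO2, an assembly factor of cytochrome c oxidase, also fell from OGD to OGD/R (-0.97, adjusted p = 0.000117), and its exons overlap those of TYMP. CPT1C, a brain form of carnitine palmitoyltransferase, fell in OGD (-0.87, adjusted p = 0.000485).

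Among secreted, membrane and signalling targets, 2 of 15 tested rose and 11 fell in OGD against control, and 10 rose and 1 fell in OGD/R against OGD. Of all genes, 11.3% rose and 46.7% fell in the first comparison, and 53.3% rose and 17.4% fell in the second. After median-of-ratios scaling the counts of the 15 were 2 and 6, then 9 and 2. All genes then rose and fell in 26.5% and 23.1%, then in 32.6% and 34.2%. The 2 that rose in OGD were GDF15, a stress cytokine (1.11, adjusted p = 4.02e-05) and THBS1, the angiogenesis inhibitor thrombospondin 1 (1.04, adjusted p = 5.96e-05). In OGD/R against control LIF, a cytokine of the interleukin 6 family, was 1.86 higher (adjusted p = 1.4e-05), THBS1 was 1.47 higher (adjusted p = 1.3e-05) and EPHA2 was 1.13 higher (adjusted p = 0.000131). The gene that fell from OGD to OGD/R was GDF15 (-0.72, adjusted p = 0.000288). The ephrin receptor gene EPHA2 and LRP1, an endocytic receptor, rose from OGD to OGD/R by 1.71 (adjusted p = 1.12e-06) and 1.54 (adjusted p = 1.94e-06). ORAI3, a calcium channel subunit, fell in OGD (-1.10, adjusted p = 3.78e-06). Exons of LRP1 overlap those of STAT6, and exons of THBS1 overlap those of FSIP1, on the opposite strand.

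Among targets for cell death, 1 of 17 tested rose and 7 fell in OGD against control, where 11.3% and 46.7% of all genes did. After median-of-ratios scaling the balance turned, with 8 higher and 3 lower. The balance of all genes turned as well, to 26.5% higher and 23.1% lower. PIDD1, a scaffold for caspase 2, fell in OGD (-1.11, adjusted p = 0.000822), and its exons overlap those of the abundant RPLP2. From OGD to OGD/R 7 rose and 2 fell (53.3% and 17.4% of all genes), and after scaling 5 rose and 7 fell (32.6% and 34.2%). TNFRSF10B, a death receptor for TRAIL, was at 22.9, 22.2 and 15.4 FPKM in control, at 14.4, 13.3 and 13.5 in OGD and at 42.5, 53.3 and 47.0 in OGD/R. OGD/R libraries stood above all others, and TNFRSF10B rose from OGD to OGD/R by 1.72 (adjusted p = 8.31e-07) and from control to OGD/R by 1.21 (adjusted p = 6.71e-05). TRIAP1, an inhibitor of apoptosis, was lower in OGD/R than in control (-0.67, adjusted p = 0.000166). Among the 8 DNA repair targets, 1 rose and 5 fell in OGD, and 6 rose and 1 fell from OGD to OGD/R. Of all genes, 11.3% rose and 46.7% fell in the first comparison, and 53.3% rose and 17.4% fell in the second. After median-of-ratios scaling the DNA repair counts were 1 and 2, then 3 and 1. The shares of all genes were then 26.5% and 23.1%, and 32.6% and 34.2%. RPS27L, a ribosomal protein paralogue, was the one that moved against the others (0.60, adjusted p = 0.000812, then -0.98, adjusted p = 8.86e-06). APOBEC3C, a cytidine deaminase, fell in OGD (-1.10, adjusted p = 0.000697). Among 9 cell-cycle targets, 1 rose and 5 fell in OGD, and 7 rose and 0 fell from OGD to OGD/R, with 1 lower at an unadjusted limma p under 0.05. After scaling these counts were 2 and 3, then 4 and 2. The shares of all genes beside them are those given for DNA repair. CCNG1, cyclin G1, was lower in OGD/R than in control (-0.68, adjusted p = 0.00299).

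A list of 16 genes that p21 is known to repress through the DREAM complex was described beside CDKN1A. Whether p21 represses them in this line, which carries large T antigen, was not tested. All 16 fell in OGD against control, with a median of -0.85 beside -0.31 for all genes, and 14 fell after median-of-ratios scaling. Of all genes, 46.7% fell on the deposited scale and 23.1% after scaling. The 16 are genes of mitosis and of S and G2 phase. CDKN1A fell in the same comparison on the deposited scale and differed by 0.05 after scaling. From OGD to OGD/R 15 of the 16 rose and 1, CDK1, fell (-0.31), with a median of 0.93 beside 0.39. Of all genes, 53.3% rose and 17.4% fell. After scaling 10 rose and 1 fell (32.6% and 34.2% of all genes). Compared with control, 5 rose and 3 fell in OGD/R (24.7% and 16.5% of all genes). After scaling the balance turned, with 4 higher and 7 lower (22.1% and 23.0% of all genes). The mitotic kinase gene PLK1 was at 58.8, 52.7 and 46.3 FPKM in control, at 20.8, 21.5 and 22.4 in OGD and at 74.5, 90.7 and 76.8 in OGD/R. Its groups did not overlap. PLK1 fell in OGD (-1.24, adjusted p = 4.94e-06) and was above control in OGD/R (0.61, adjusted p = 0.000848). CDK1, CDC25C and CCNA2 were the 3 that were below control on the deposited scale. PLK1, CDK1, CDC25C and CCNA2 were named after their values were seen.

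**Figure D4:**
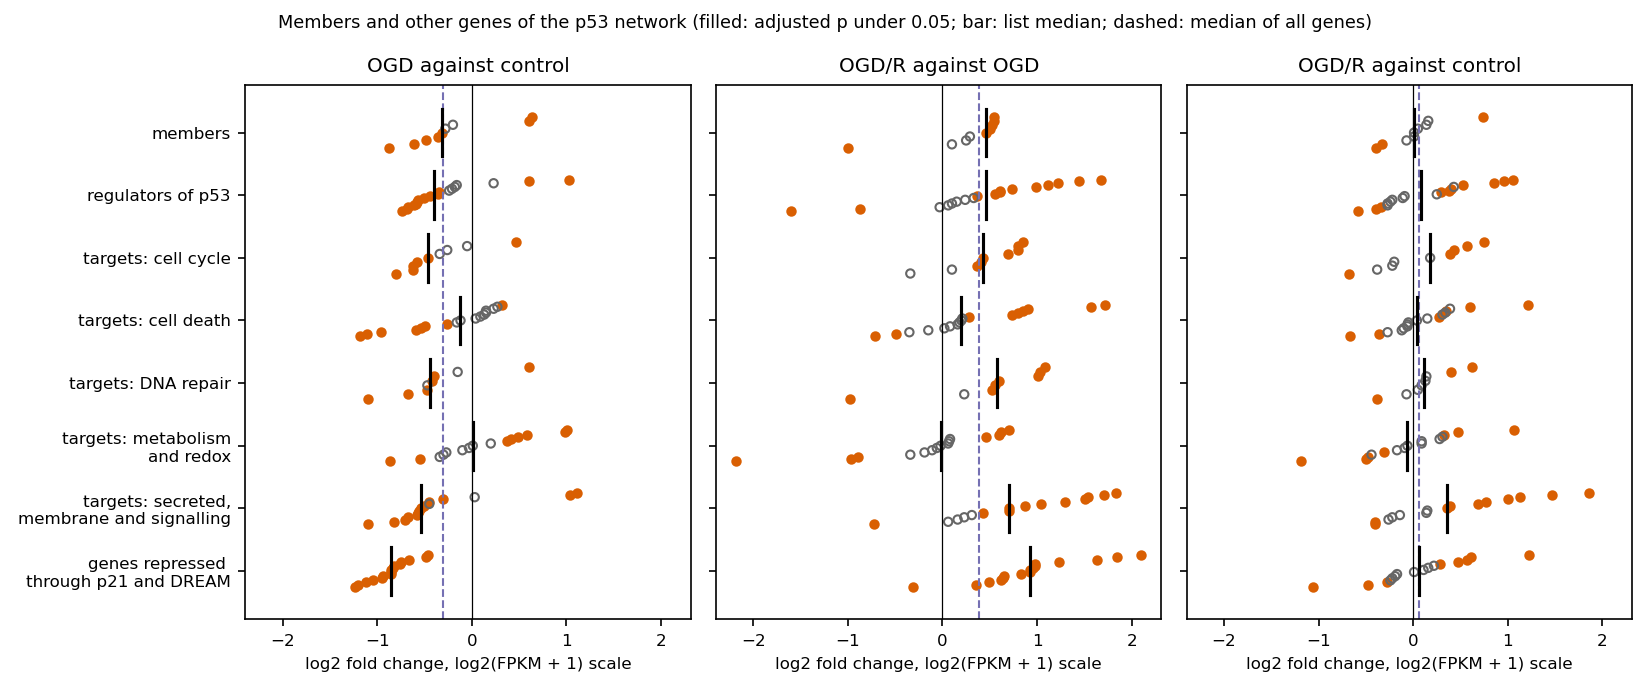
Log2 fold change (horizontal axis, log2(FPKM + 1) scale) of each tested gene of the 9 targets, of the regulators of p53, of 5 groups of other targets and of the p21 and DREAM list, with filled points for genes past an adjusted p of 0.05, a bar at each list's median and a dashed line at the median of all genes. The p21 and DREAM list lies at -0.85 in OGD against control beside -0.31 for all genes, and the metabolism and redox list lies at 0.01.

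For each target up to 2 genes most like it in profile were taken from all tested genes, by the root mean square difference of their log2 values over the 9 libraries after each gene was centred on its mean. For TP53I3 the nearest was ATF4, a transcription factor of the integrated stress response, at a difference of 0.0884 log2 units. ATF4 was at 370.5, 292 and 336 FPKM in control, at 534, 518 and 549 in OGD and at 235, 249 and 248 in OGD/R, so its groups did not overlap and took the same order as those of TP53I3. Because ATF4 was picked for its likeness to TP53I3, this order and its fold changes (0.69 in OGD, -1.13 from OGD to OGD/R) follow from the choice. The second for TP53I3 was RNASEH2C at 0.0945. For CDKN1A the nearest were LUC7L (0.051) and ATP6V0D1 (0.0514), for BTG2 DTNB (0.0765) and GNL1 (0.0799), and for MDM2 CDK17 (0.074) and S100PBP (0.0783). For GADD45B they were KAT8 (0.0465) and USF1 (0.0627), for RRM2B CGGBP1 (0.0571) and HS2ST1 (0.0584), and for ZMAT3 DOCK4 (0.0534) and CCNY (0.0553). GADD45A and SESN1 had the least close neighbours among those given, with NAGLU (0.127) and HNRNPA1L3 (0.138) for the first and ZFYVE9 (0.106) for the second. Within the 9 targets the nearest pair was CDKN1A and ZMAT3, at 0.128. All genes share the depth and composition of the same 9 libraries, and these differences describe them without a test.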

How the data were processed

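RNA sequencing of 9 hCMEC/D3 libraries (3 control, 3 OGD, 3 OGD/R) was used, made from 1.3 µg of total RNA with a SMARTer mRNA kit, per the labels' protocols. The deposited table holds 1 FPKM value per gene and library, computed by the authors. GRCh38 is named in the submitters' processing notes. For the aligner, annotation, use of strand and read numbers, no statement was found in the labels. FPKM values did not fall on whole-read steps (at most 1.56% of low genes at the commonest ratio between libraries), so reads could not be recovered and no count model was used. The 9 genes and all lists were chosen with earlier results of these data known.

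The test covered 10818 of 15570 genes, those that reached 1 FPKM in 3 or more libraries. Values were transformed as log2(FPKM + 1), with no further scaling. limma 3.58.1 in R 4.3.3 fitted 3 groups over 9 libraries, with eBayes and an intensity trend (6 residual and 6.33 prior degrees of freedom), two-sided, and Benjamini-Hochberg adjustment at 0.05 in each comparison. The code was tested on simulated data. Alternatives were median-of-ratios scaling, quantile normalization, a pseudocount of 0.1, no filter, a filter at 5 FPKM, removal of the trend on transcript length (GENCODE 29), eBayes with no trend or a robust prior, a fit of only the 2 groups compared, a replicate block and leaving out each library. Genes named were the 9, MDM4, the genes listed as related to the targets, and the 2 genes most like each target. In each comparison the 4 called genes with the largest fold change in each direction were also named. These came from regulators and other targets whose higher group averaged 5 FPKM or more. Coordinates and promoter sequences are from RefSeq on GRCh38.p14. Exon overlaps were taken from GENCODE 29. Some genes that these rules name are not reported here, and they are left out of the lists counted.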

Additional observations from a re-analysis of the deposited data

How the results depend on the processing

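Among the 9 targets, the calls in OGD against control that held in all 19 alternatives were the rises of GADD45A and TP53I3 and the fall of RRM2B. Scaling between libraries decided most other counts, because a scaling that equalises the typical gene moves every fold change by that gene's shift. In OGD against control the 5 targets lower became 1 with median-of-ratios scaling and 2 with quantile normalization, and ranged from 3 to 5 when 1 library was left out. All genes higher and lower there numbered 2863 and 2495 with the first scaling and 2166 and 2427 with the second. In OGD/R against OGD the 5 targets higher became 0 and 2, the 1 lower became 2 with quantile normalization, and all genes higher and lower numbered 3525 and 3704, then 3399 and 3386. In OGD/R against control the 1 target higher became 2 with quantile normalization, which added CDKN1A. The 2 lower became 1 with no filter, with the length trend removed, in a fit of only the groups compared and with the replicate block, and ranged from 0 to 2 when 1 library was left out.

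The labels do not state whether replicate numbers pair the libraries. Deviations from group means correlated from -0.2 to 0.148 between libraries with the same number (9 pairs) and from -0.242 to 0.37 between those with different numbers (18 pairs). With 3 libraries a group such values cannot decide whether libraries were paired. With the replicate block 1166 genes rose and 4790 fell in OGD against control, beside 1218 and 5054 without it, and among the 9 targets the block ended the call of RRM2B in OGD/R against control (adjusted p = 0.0739).

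The differences that turned included some that had passed on the reported scale, among them CDKN1A, GADD45B, BTG2 and RRM1. In OGD against control, median-of-ratios scaling gave CDKN1A 0.05, GADD45B 0.01, ZMAT3 0.06, MDM4 0.05 and BTG3 0.20. Quantile normalization gave ZMAT3 0.17, SESN1 0.10 and MDM4 0.16, and removal of the length trend gave MDM4 0.11 and ZMAT5 -0.01. In OGD/R against OGD, median-of-ratios scaling gave CDKN1A -0.01, GADD45A -0.36, ZMAT3 -0.08, SESN1 -0.06, SESN2 -0.34 (adjusted p = 0.015), BTG3 -0.45 (adjusted p = 0.00123) and RRM1 -0.09. Quantile normalization gave ZMAT3 -0.30 (adjusted p = 0.0189), SESN1 -0.28, BTG2 -0.08 and SESN2 -0.52 (adjusted p = 0.00198), removal of the length trend gave SESN2 -0.17, and BTG3 ranged from -0.05 to 0.07 when 1 library was left out. In OGD/R against control, median-of-ratios scaling gave ZMAT3 -0.02, SESN1 -0.06, BTG2 -0.06 and CDKN1B -0.08. Quantile normalization gave ZMAT3 -0.13, SESN1 -0.18 and BTG2 -0.18, and removal of the length trend gave MDM2 0.06, ZMAT3 -0.03, SESN1 -0.06 and BTG2 -0.06. With 1 library left out, MDM2 ranged from -0.25 to 0.03, GADD45B from -0.00064 to 0.30, SESN1 from -0.10 to 0.10, BTG2 from -0.10 to 0.16 and CDKN1B from -0.05 to 0.10. Apart from the effect of the scaling itself, the cause was not tested. Depth is unknown, so how far low counts limit SESN1, ZMAT3, BTG2, MDM4, EP300 and CREBBP, all below 5 FPKM, cannot be given.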
